A study of Mus musculus with 12 samples.

Results

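The genes described here are 41 genes of the autophagy machinery, found by gene symbol among the 55536 gene IDs counted in each library of a study of MEF cells. MEF stands for mouse embryonic fibroblasts, cells that make connective tissue and grow readily in culture. The list was a fixed set of names and its rule used no measured value, but it was chosen with earlier results of these data known. Cells received 100 nM halofuginone (HF) for 6 h, and control cells the same medium without it. HF is a small molecule that inhibits charging of proline tRNA by the synthetase EPRS, and so mimics a lack of proline. Both groups were kept over those hours in high-glucose DMEM with dialyzed serum, from which small molecules such as free amino acids have been removed, after growth in whole serum. The sources used here give no genotype, mouse strain or line. Nor do these state whether the replicates were separate cultures, and the spread behind every p-value may therefore be technical. In each group, total RNA and ribosome footprints (RPF, the mRNA fragments that ribosomes protect from RNase) were sequenced in 3 libraries each, which gives 12 libraries in 4 groups.

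Autophagy is the pathway by which a cell wraps part of its cytoplasm in a new double membrane, the autophagosome, and delivers it to the lysosome for breakdown, which returns amino acids when these are scarce. The ULK1 kinase complex starts the process, the class III PI3 kinase complexes mark the membrane with a lipid, ATG9, ATG2 and the WIPI proteins bring in and recognise lipid, and a ubiquitin-like conjugation system attaches the LC3 and GABARAP proteins to the growing membrane. Receptors such as p62, the product of Sqstm1, bind cargo with one end and LC3 or GABARAP proteins with the other. In fibroblasts short of amino acids, the kinase GCN2 phosphorylates eIF2 alpha, and the transcription factors ATF4 and CHOP made in response are known to raise transcription of a number of these genes, while TFEB and TFE3 act on lysosome and autophagy genes when mTORC1 is low.

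Total counts ran from 1017651 to 1697554 in the RNA libraries of HF cells and from 718096 to 1295434 in those of control cells, and from 562794 to 1958356 in the footprint libraries of HF cells and from 724609 to 2527791 in those of control cells. At this depth many members have few counts a library, which limits the precision of small changes. Values per library are given as CPM, counts scaled by TMM factors to a common library total, and a change is the log2 of HF over control from the fit. With no spike-in among the methods, a change is one against most other genes. Of 11 fibroblast markers, 9 were detected and Dcn and Lum were at 0, with summed levels in total RNA of 9365 to 9684 CPM in HF libraries, against 7790 to 8155 CPM in control libraries. Fn1 set that direction: without it the sum was 4521 to 4680 CPM in HF libraries, against 6262 to 6599 CPM in control libraries, and of the 9 detected markers 6 had a lower mean in HF cells and 3 a higher one. All 5 epithelial and all 3 muscle markers were at 0. The 4 endothelial markers, of which 2 were at 0, summed to 5.28 to 15.7 CPM in HF libraries, against 0 to 1.61 CPM in control libraries. The 4 blood markers summed to 0 to 5.89 CPM in HF libraries, against 0 in control libraries, with 2 at 0. The 3 neural markers, of which 1 was at 0, summed to 5.89 to 32.5 CPM in HF libraries, against 16.8 to 41.1 CPM in control libraries. These are bulk lysates, so a shift in the cells present and a shift in RNA per cell cannot be told apart, and the part of the marker differences in any result was not tested.

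Members moved in both directions, in proportions close to those of all genes. In total RNA 39 members had enough counts to be tested, and Atg4a (6 counts over the 6 libraries) and Atg10 (14 counts) did not. By edgeR's quasi-likelihood test, at an adjusted p under 0.05, 10 of the 39 were higher in HF libraries (25.6%, beside 22.2% of the 9145 genes tested) and 8 were lower (20.5%, beside 21.4%). The median change was 0.13 over the members tested and −0.02 over all genes. In 20 of the 39 the HF and control libraries did not overlap (51.3%), and the share over all genes was also 51.3%.

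In footprints 35 members were tested among 8373 protein-coding genes. The members with too few footprints were Ulk2 (18 counts), Atg4a (11), Atg4c (53), Atg4d (47), Atg10 (17) and Tfeb (62). Of the 35, 9 were higher (25.7%, beside 22.4% of all genes tested), 5 were lower (14.3%, beside 20.9%), and 17 had no overlap between HF and control libraries (48.6%, beside 51.4%). The median change was −0.10 over the members tested and −0.02 over all genes. Translational efficiency (TE), the footprints of a gene for its amount of RNA, tested as an interaction of assay and treatment over the 12 libraries, was higher in HF for 4 of 35 members (11.4%, beside 6.13% of 7926 genes) and lower for 2 (5.71%, beside 8.23%). Shares in RNA and footprints are near those of all genes and the TE calls are few, so the counts describe the list and do not set it apart.

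The counts of members called changed when single libraries were left out, which also leaves fewer libraries for every other gene. The matching counts over all genes are not given here, so the changes cannot be read as a trait of the members. In total RNA 4 were lower without control library 1 and 4 without HF library 2, and 6 were higher without HF library 3. In footprints 1 was lower without control library 1, 2 without control library 2 and 2 without HF library 2, while 9 were higher whichever library was left out. For TE 2 were higher without footprint control library 3.

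RNA and footprint changes are set side by side for the 35 members tested in both. Atg12, Map1lc3a, Nbr1, Optn, Sqstm1 and Wipi2, 6 in all, were higher in both, and 2, Ulk1 and Wipi1, were lower in both. Atg2b was the 1 member called higher in total RNA and lower in footprints. A further 6 were called only in RNA, 5 only in footprints and 15 in neither. These classes were not counted over all genes, so the numbers describe the members and do not set them apart. Across these members Pearson's r between the changes was 0.63, against 0.71 across the 7921 genes tested in both, as a description of genes within the same libraries and not of replicates.

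**Figure D1:**
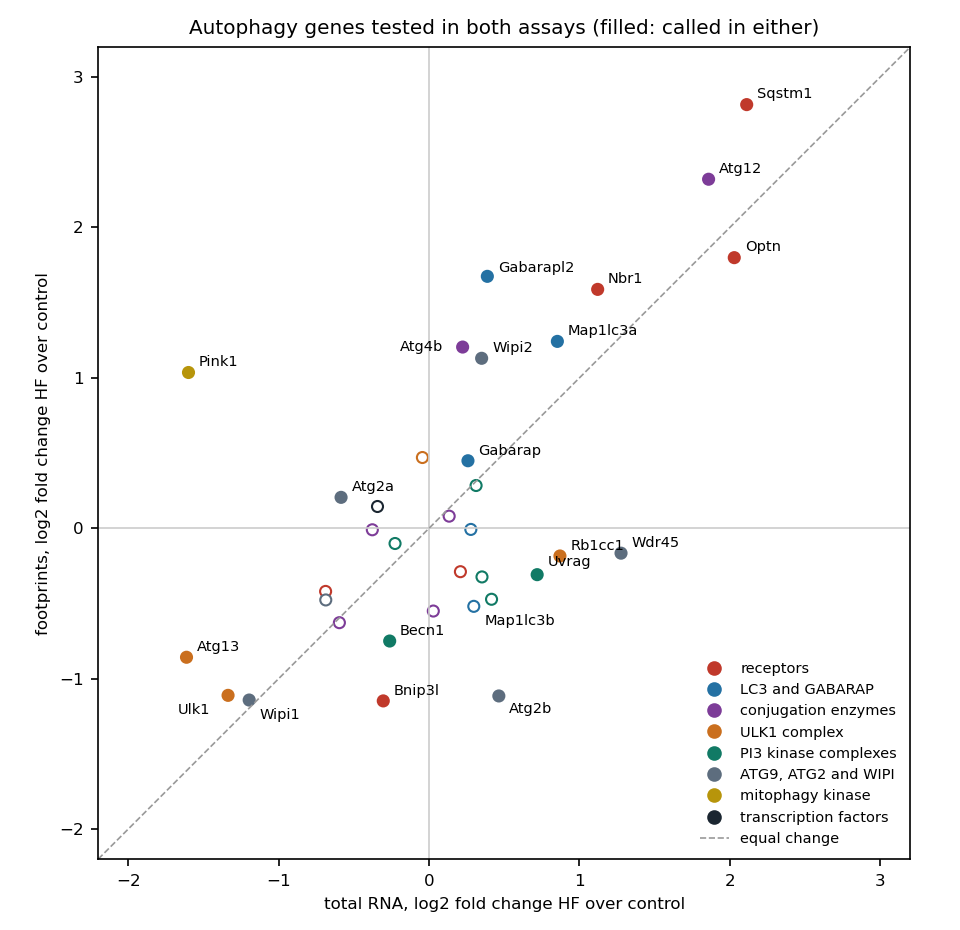
Change in footprints (vertical axis) against change in total RNA (horizontal axis), both log2 HF over control, for the 35 members tested in both assays; filled points passed the test in at least 1 assay, and the dashed line marks equal change. Sqstm1 lies at the upper right at 2.11 in RNA and 2.82 in footprints, Ulk1 and Wipi1 at the lower left, and Atg2b at the lower right with higher RNA and lower footprints.

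The receptors included Sqstm1, the member with the largest increase in both assays. Of 6 members in this group, Sqstm1, Optn and Nbr1 rose in both assays, Bnip3l fell in footprints, and Tax1bp1 and Calcoco1 did not pass the test in either. The median change of the 6 was 0.66 in RNA and 0.65 in footprints.

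Sqstm1 lies on chromosome 11 from 50200152 to 50210820 (GRCm38, whole gene with introns), with no overlapping RefSeq gene. It encodes p62, which gathers ubiquitin-tagged proteins into bodies and links them to LC3, and is itself degraded with its cargo. Its promoter is shown because it belongs to the member with the largest change in both assays. These are the 250 bases before its annotated start (RefSeq, GRCm38.p6, chr11:50210821-50211070, minus strand), with matches to the GC box GGGCGG, read on either strand, in capitals.
Sqstm1: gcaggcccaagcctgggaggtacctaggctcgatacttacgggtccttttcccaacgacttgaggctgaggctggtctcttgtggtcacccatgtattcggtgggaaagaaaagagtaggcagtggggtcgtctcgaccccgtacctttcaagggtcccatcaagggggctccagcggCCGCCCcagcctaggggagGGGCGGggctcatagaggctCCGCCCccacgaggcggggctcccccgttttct
The 3 GC boxes begin at −72, −53 and −33, counting −1 as the base just before the start. Windows of 300 bases, from 250 before to 50 after a start, were at hand for 34 of the 41 members (41 windows in all), and 26 of these windows (63.4%) held a GC box, beside 35.7% of the 32851 windows in the table, which is not limited to expressed genes. The GC box was searched after the values were seen.

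Sqstm1 had 1237, 1048 and 1128 CPM in the RNA libraries of HF cells, against 273, 279 and 238 CPM in those of control cells. In footprints it had 1566, 1424 and 1617 CPM in HF libraries, against 207, 216 and 236 CPM in control libraries. Every HF library was several times above every control library in both assays. RNA rose 4.32-fold (log2 2.11, SE 0.10, edgeR adjusted p = 3.62e-28), which ranked 183 of 9145 genes from the highest, and footprints rose 7.05-fold (log2 2.82, SE 0.10, edgeR adjusted p = 3.26e-21), which ranked 74 of 8373. Footprints rose more than RNA did, with TE higher by log2 0.71 (SE 0.13, edgeR adjusted p = 9.98e-05), and this call held in all 19 alternatives tried. Sqstm1 took 32.8 to 33.9% of the summed CPM of the 41 members in the RNA libraries of HF cells, against 10.3 to 12.1% in those of control cells. In footprints it took 39.1 to 42.4% in HF libraries, against 9.68 to 10.8% in control libraries. Without Sqstm1 the members summed to 2197 to 2354 footprint CPM in HF libraries, against 1829 to 1953 in control libraries, and to 2144 to 2411 RNA CPM in HF libraries, against 2035 to 2123 in control libraries.

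Optn encodes optineurin, a ubiquitin-binding receptor for damaged mitochondria and bacteria. It had 54.5, 49.1 and 33.0 RNA CPM in HF libraries, against 9.66, 5.64 and 16.8 CPM in control libraries, and 67.5, 60.2 and 49.3 footprint CPM in HF libraries, against 13.0, 18.4 and 23.9 CPM in control libraries. The groups did not overlap in either assay, and the changes were log2 2.03 (SE 0.38, edgeR adjusted p = 8.46e-06) in RNA and log2 1.80 (SE 0.30, edgeR adjusted p = 9.90e-06) in footprints. Nbr1, a receptor related to p62 that also acts in the removal of peroxisomes, had 116, 129.7 and 124 RNA CPM in HF libraries, against 53.1, 45.1 and 70.4 CPM in control libraries. Its footprints stood at 207, 161 and 125 CPM in HF libraries, against 56.4, 58.8 and 52.0 CPM in control libraries. Nbr1 rose by log2 1.12 (SE 0.20, edgeR adjusted p = 2.65e-06) in RNA and log2 1.59 (SE 0.19, edgeR adjusted p = 3.39e-08) in footprints, with the HF libraries more spread in footprints than the control libraries. For neither gene did TE pass the test (Optn −0.23, adjusted p = 0.83; Nbr1 0.47, adjusted p = 0.29, by edgeR).

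Bnip3l encodes NIX, a receptor in the outer membrane of mitochondria that drives their removal. Its footprints were 13.5, 10.0 and 7.58 CPM in HF libraries, against 28.4, 19.6 and 26.7 CPM in control libraries, a fall without overlap of log2 −1.15 (SE 0.42, edgeR adjusted p = 0.025). Its RNA (62.4, 89.4 and 48.9 CPM in HF libraries, against 82.1, 80.3 and 80.9 CPM in control libraries) overlapped between groups, at log2 −0.30 (edgeR adjusted p = 0.26). The footprint value was log2 −1.06 (edgeR adjusted p = 0.12) without control library 1 and log2 −1.01 (edgeR adjusted p = 0.054) without HF library 3. A pseudogene copy of Bnip3l is annotated too, so its counts may be split between the copies. Tax1bp1 and Calcoco1, receptors of one coiled-coil family, had log2 changes of 0.21 and −0.69 in RNA and −0.29 and −0.42 in footprints, none past the threshold.

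**Figure D2:**
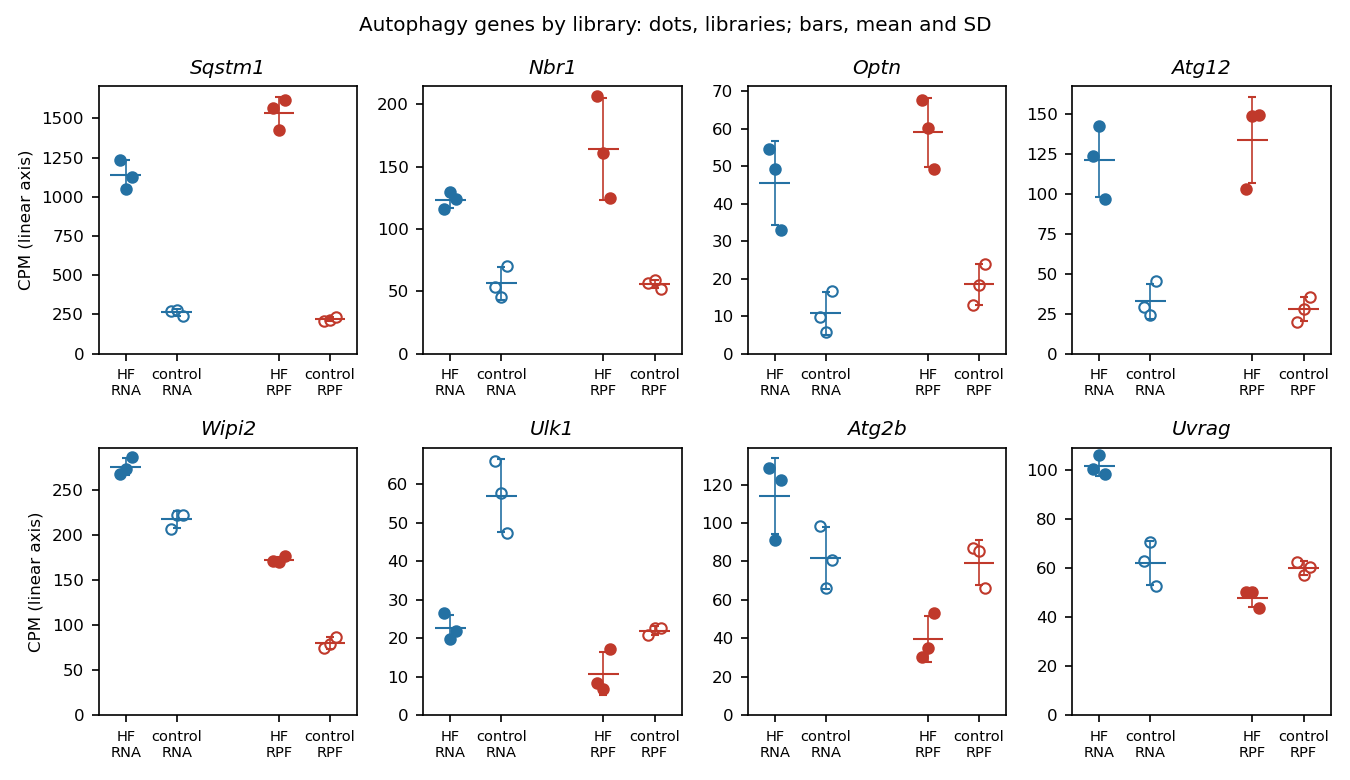
CPM on linear axes from 0 for 8 members in each library; filled dots are HF libraries and open dots control libraries, with total RNA left and footprints (RPF) right in each panel, and bars show the mean and SD of 3 libraries. For Sqstm1, Nbr1, Optn, Atg12 and Wipi2 the HF dots lie above the control dots in both assays and for Ulk1 below them, while for Uvrag and Atg2b the order of the means in footprints is opposite to that in RNA.

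The LC3 and GABARAP proteins are the ubiquitin-like tags fixed to the autophagosome membrane, where receptors and the lysosome's docking factors bind them. Of 5 genes, Map1lc3a rose in RNA, and Map1lc3a, Gabarapl2 and Gabarap rose in footprints. None fell by the test, and none passed in TE. Map1lc3b and Gabarapl1 did not pass in the main fit of any comparison.

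Map1lc3a had 37.8, 64.8 and 66.5 RNA CPM in HF libraries, against 32.2, 22.6 and 37.8 CPM in control libraries. Its highest control library lay just below its lowest HF library, and the change was log2 0.85 (SE 0.28, edgeR adjusted p = 0.0093). Without HF library 3 it was log2 0.73 (edgeR adjusted p = 0.078). In footprints it had 44.5, 53.5 and 51.2 CPM in HF libraries, against 17.8, 26.4 and 16.9 CPM in control libraries, with no overlap, and rose by log2 1.24 (SE 0.30, edgeR adjusted p = 0.0011).

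Gabarapl2, also known as GATE-16, had 36.0, 46.8 and 39.8 footprint CPM in HF libraries, against 15.4, 11.6 and 8.43 CPM in control libraries. Each HF library stood well above any control library. Its footprints rose 3.19-fold (log2 1.67, SE 0.35, edgeR adjusted p = 0.00027), while its RNA, at 19.3, 18.7 and 40.0 CPM in HF libraries, against 24.2, 19.7 and 16.8 CPM in control libraries, overlapped between groups (log2 0.39, edgeR adjusted p = 0.43). The TE change of 1.29 ± 0.53 (SE) did not pass (edgeR adjusted p = 0.095). A pseudogene copy of Gabarapl2 is annotated, so its counts are uncertain to that extent. Gabarap, the most counted of the 5, averaged 423 ± 50.3 CPM in HF libraries and 315 ± 26.3 CPM in control libraries (SD, n = 3 each) in footprints, a rise of log2 0.45 (SE 0.12, edgeR adjusted p = 0.0026). In RNA it was at log2 0.26 (edgeR adjusted p = 0.071).

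Map1lc3b, which encodes LC3B, the usual marker of autophagosomes, had 119, 47.2 and 87.7 RNA CPM in HF libraries, against 62.0, 93.0 and 56.7 CPM in control libraries. In footprints it had 64.7, 41.8 and 77.7 CPM in HF libraries, against 99.3, 91.9 and 67.5 CPM in control libraries. The groups overlapped in both assays. The change was log2 0.30 in RNA (95% interval −0.16 to 0.75, edgeR adjusted p = 0.30) and −0.52 in footprints (95% interval −0.97 to −0.07, edgeR adjusted p = 0.055). The footprint decrease lay just outside the threshold and passed it in 4 of 7 other settings, at log2 −0.60 to −0.54 (edgeR adjusted p = 0.020 to 0.047), and without control library 3 or HF library 3. Its RNA passed as higher without HF library 2, at log2 0.58 (edgeR adjusted p = 0.040). The gene overlaps Zcchc14 in RefSeq (whole genes with introns), and without known strand reads in the shared stretch cannot be told apart. Gabarapl1 had 119, 70.7 and 94.8 RNA CPM in HF libraries, against 91.8, 78.9 and 63.0 CPM in control libraries, and 111, 98.7 and 91.0 footprint CPM in HF libraries, against 96.9, 95 and 122 CPM in control libraries. Both pairs of groups overlapped, at log2 0.28 in RNA and −0.01 in footprints (edgeR adjusted p = 0.27 and 0.98).

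The conjugation system consists of the ubiquitin-like protein Atg12, its target Atg5 and partner Atg16l1, the E1-like enzyme Atg7, the E2-like enzymes Atg3 and Atg10, and the Atg4 proteases that trim LC3 and GABARAP proteins. In RNA 8 of 10 were tested, 1 rose (Atg12) and 2 fell (Atg4c and Atg4d). In footprints 6 were tested, and Atg12 and Atg4b rose while none fell. Atg3, Atg5, Atg7 and Atg16l1 passed in neither assay, with RNA changes of 0.13, −0.60, −0.38 and 0.03 and footprint changes of 0.08, −0.63, −0.01 and −0.55 on the log2 scale.

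Atg12 had 124, 142 and 96.5 RNA CPM in HF libraries, against 29.0, 24.0 and 45.2 CPM in control libraries, and 103, 149 and 149.8 footprint CPM in HF libraries, against 19.9, 28.2 and 35.1 CPM in control libraries. All HF libraries exceeded all control libraries in both assays. RNA rose 3.63-fold (log2 1.86, SE 0.23, edgeR adjusted p = 3.59e-10) and footprints 5.0-fold (log2 2.32, SE 0.24, edgeR adjusted p = 1.43e-09), with TE at 0.47 (edgeR adjusted p = 0.42). Atg12 overlaps Ap3s1 in RefSeq, and whether reads of that gene are among its counts cannot be told without strand.

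Among the 4 Atg4 proteases, Atg4b, the main one for LC3B, was the only one tested in footprints. It had 105, 122 and 121 footprint CPM in HF libraries, against 48.3, 60.7 and 35.1 CPM in control libraries, a rise of log2 1.20 (SE 0.21, edgeR adjusted p = 1.75e-05) without overlap. Its RNA had no call, at 59.8, 68.8 and 76.5 CPM in HF libraries, against 59.6, 59.2 and 57.8 CPM in control libraries (log2 0.22, edgeR adjusted p = 0.44). TE was higher by log2 0.99 (SE 0.30, edgeR adjusted p = 0.020), and by log2 0.86 (edgeR adjusted p = 0.061) without footprint control library 3.

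Atg4d RNA stood at 3.52, 19.6 and 12.4 CPM in HF libraries, against 47.5, 22.6 and 32.6 CPM in control libraries, and Atg4c RNA at 8.80, 5.89 and 4.71 CPM in HF libraries, against 17.7, 14.1 and 16.8 CPM in control libraries. Every HF library was below every control library for both. The falls were log2 −1.57 (SE 0.42, edgeR adjusted p = 0.0016) for Atg4d and log2 −1.35 (SE 0.56, edgeR adjusted p = 0.043) for Atg4c. Atg4c rests on 72 counts and lost its call whichever of the 6 libraries was left out (log2 −1.59 to −1.11, edgeR adjusted p = 0.057 to 0.18). It lost it too with DESeq2 (adjusted p = 0.061) and with no filter on low counts (edgeR adjusted p = 0.10). Atg4d was at log2 −1.24 (edgeR adjusted p = 0.065) without control library 1. Atg4d overlaps Kri1 in RefSeq. Footprints of both genes were too few to test, at 6.19, 6.69 and 0 CPM in HF libraries, against 7.30, 6.13 and 5.62 CPM in control libraries for Atg4d, and 3.38, 6.69 and 3.79 CPM in HF libraries, against 9.33, 7.35 and 8.43 CPM in control libraries for Atg4c.

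The ULK1 complex, in which the kinases Ulk1 or Ulk2 sit with the scaffold Rb1cc1 (FIP200), Atg13 and Atg101, had more members lower than higher in RNA. In RNA Ulk1, Ulk2 and Atg13 fell, Rb1cc1 rose and Atg101 had no call, with a median log2 change of −1.17 over the 5. Of all genes tested in RNA, 22.2% rose and 21.4% fell. With 5 genes the count describes the complex and does not set it apart, and the difference was not tested. In footprints 4 were tested and Ulk1 fell. No member of the complex passed in TE.

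Ulk1 had 26.4, 19.6 and 21.8 RNA CPM in HF libraries, against 66.0, 57.8 and 47.3 CPM in control libraries. Ulk2 RNA was at 12.3, 9.82 and 20.0 CPM in HF libraries, against 44.3, 22.6 and 29.4 CPM in control libraries. Atg13 RNA was at 25.5, 13.8 and 13.0 CPM in HF libraries, against 41.1, 70.5 and 49.4 CPM in control libraries. For each of the 3 the highest HF library lay below the lowest control library. The falls were log2 −1.34 (SE 0.29, edgeR adjusted p = 0.00010) for Ulk1, log2 −1.17 (SE 0.39, edgeR adjusted p = 0.011) for Ulk2 and log2 −1.61 (SE 0.33, edgeR adjusted p = 4.08e-05) for Atg13. Those of Ulk1 and Atg13 held in all 12 alternatives. Ulk2 was at log2 −0.85 (edgeR adjusted p = 0.16) without control library 1 and log2 −0.97 (edgeR adjusted p = 0.061) without HF library 2.

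Footprints of Ulk1 were 8.44, 6.69 and 17.1 CPM in HF libraries, against 20.7, 22.7 and 22.5 CPM in control libraries, lower without overlap at log2 −1.11 (SE 0.46, edgeR adjusted p = 0.048). That call rests on 132 counts and was lost in 5 of the 6 runs without a library, all but that without HF library 3 (log2 −1.17 to −0.90, edgeR adjusted p = 0.073 to 0.19). It was also lost with DESeq2 (adjusted p = 0.084), with no filter on low counts (edgeR adjusted p = 0.054) and with all genes fitted (edgeR adjusted p = 0.052). Atg13 footprints were 14.6, 13.4 and 15.2 CPM in HF libraries, against 23.9, 20.2 and 37.9 CPM in control libraries, without overlap but at log2 −0.86 outside the threshold (edgeR adjusted p = 0.080). Ulk2 footprints were scarce, at 0, 0 and 3.79 CPM in HF libraries, against 2.43, 2.45 and 8.43 CPM in control libraries.

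Rb1cc1 had 19.3, 36.3 and 45.3 RNA CPM in HF libraries, against 20.1, 11.3 and 23.1 CPM in control libraries, and the groups overlapped. Its rise of log2 0.87 (SE 0.36, edgeR adjusted p = 0.046) was lost in 4 of 6 runs without a library, at log2 0.60 to 0.94 (edgeR adjusted p = 0.086 to 0.32), namely those without control libraries 1 or 2 and without HF libraries 2 or 3. The call was also lost with upper-quartile factors (edgeR adjusted p = 0.062), with DESeq2 (adjusted p = 0.095) and with no filter on low counts (edgeR adjusted p = 0.053). Its footprints, at 56.3, 61.9 and 66.4 CPM in HF libraries, against 81.5, 51.5 and 73.1 CPM in control libraries, overlapped as well (log2 −0.18, edgeR adjusted p = 0.53). A long noncoding RNA, 4732440D04Rik, overlaps it. Atg101, which stabilises Atg13, was at log2 −0.04 in RNA and 0.47 in footprints (edgeR adjusted p = 0.90 and 0.12).

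**Figure D3:**
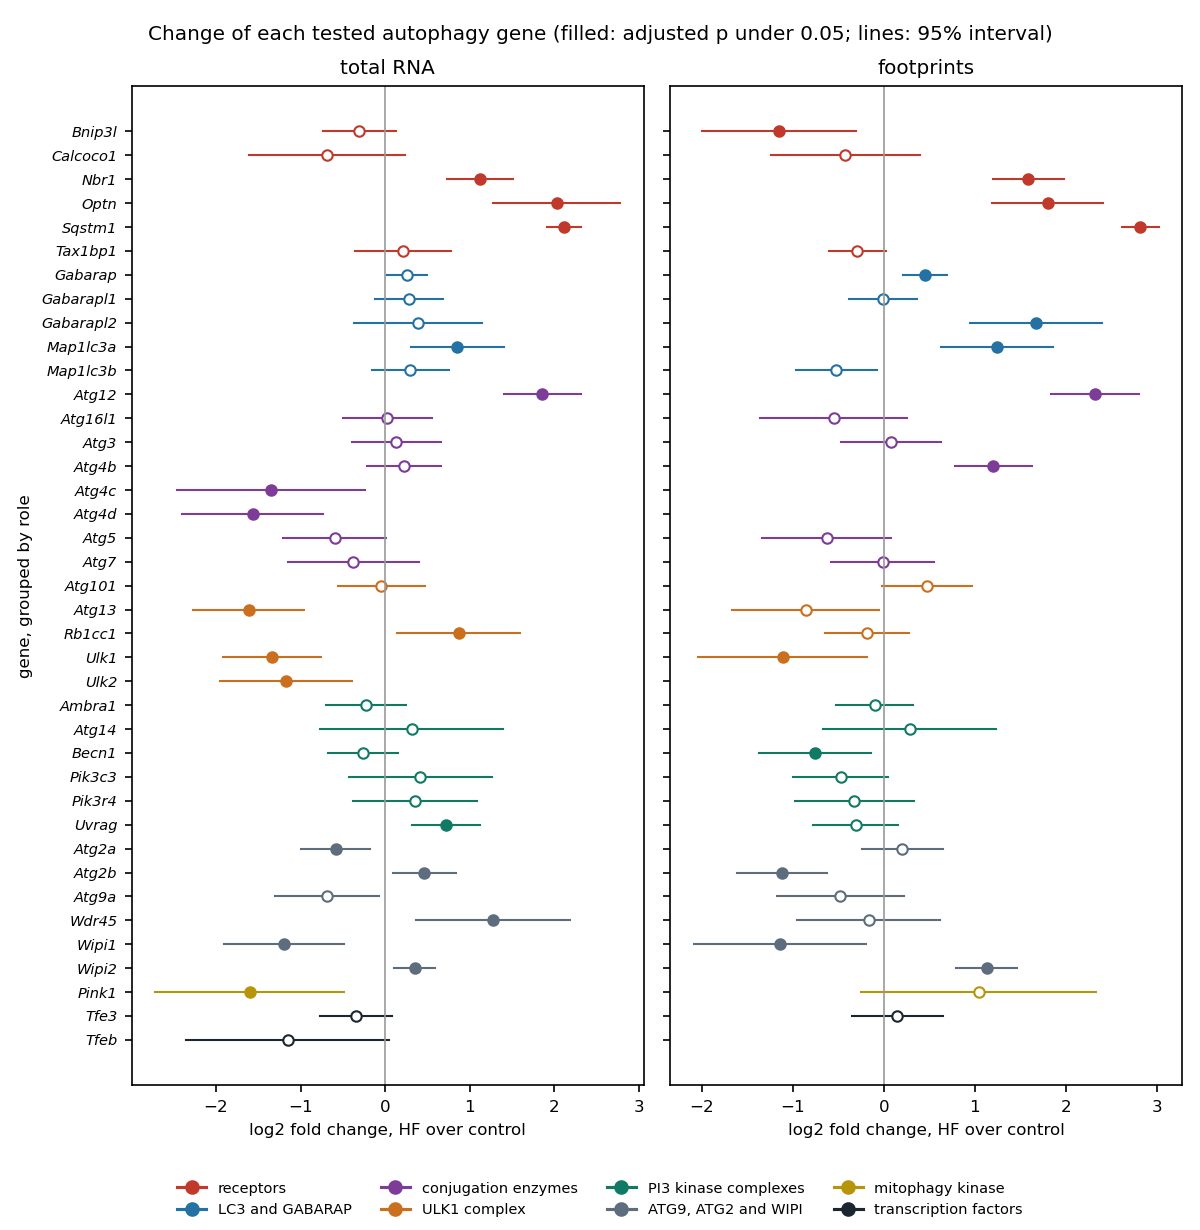
Log2 change, HF over control (horizontal axes), of each member tested in total RNA (left, 39 members) and in footprints (right, 35 members), grouped by role, with lines for the 95% interval and filled points for edgeR adjusted p under 0.05. Sqstm1 is the point farthest right in both panels (2.11 and 2.82), while Atg13, Pink1 and Atg4d lie farthest left in RNA and Bnip3l, Wipi1, Atg2b and Ulk1 in footprints.

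The class III PI3 kinase complexes pair the kinase Pik3c3 (VPS34) and its regulatory subunit Pik3r4 (VPS15) with Becn1 (beclin 1) and either Atg14, for autophagosome formation, or Uvrag, for later endosomal steps, and Ambra1 binds Becn1. Of 6 members, Uvrag rose in RNA and Becn1 fell in footprints. Uvrag had 100.3, 106 and 98.3 RNA CPM in HF libraries, against 62.8, 70.5 and 52.5 CPM in control libraries, a rise without overlap of log2 0.72 (SE 0.20, edgeR adjusted p = 0.0025). Its footprints were 50.1, 50.2 and 43.6 CPM in HF libraries, against 62.4, 57.0 and 60.4 CPM in control libraries, all HF libraries being below all control libraries. That difference did not pass in the footprint fit (log2 −0.31, edgeR adjusted p = 0.29). Against RNA the footprints were lower, with TE at log2 −1.02 (SE 0.30, edgeR adjusted p = 0.015), which held in all 19 alternatives. Uvrag overlaps 3 other RefSeq loci.

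Becn1 had 20.8, 26.8 and 30.3 footprint CPM in HF libraries, against 47.8, 42.9 and 30.9 CPM in control libraries, which left a narrow gap between groups and a fall of log2 −0.75 (SE 0.30, edgeR adjusted p = 0.044). The call was lost in 4 of 6 runs without a library, those without control libraries 1 or 2 and without HF libraries 1 or 2 (log2 −0.80 to −0.55, edgeR adjusted p = 0.057 to 0.22). It was also lost with DESeq2 (adjusted p = 0.11) and with no filter on low counts (edgeR adjusted p = 0.052). Its RNA was 63.3, 56.0 and 96.5 CPM in HF libraries, against 94.2, 93.0 and 76.7 CPM in control libraries, with overlap (log2 −0.26, edgeR adjusted p = 0.31). Becn1 overlaps Cntd1 in RefSeq. The other 4 members ran from −0.23 (Ambra1) to 0.42 (Pik3c3) in RNA and from −0.47 (Pik3c3) to 0.28 (Atg14) in footprints, none past the threshold.

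Atg9a is the membrane protein that seeds the autophagosome, Atg2a and Atg2b carry lipid into it, and Wipi1, Wipi2 and Wdr45 (WIPI4) bind the lipid made by the PI3 kinase. In RNA Atg2b, Wdr45 and Wipi2 rose and Atg2a and Wipi1 fell. In footprints Wipi2 rose and Atg2b and Wipi1 fell. TE was higher for Wipi2 and lower for Atg2b.

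Atg2b, on chromosome 12 from 105613539 to 105685297 (GRCm38), had 128, 91.4 and 122 RNA CPM in HF libraries, against 98.2, 66.2 and 80.9 CPM in control libraries. The groups overlapped and the rise was small, at log2 0.46 (SE 0.19, edgeR adjusted p = 0.037). It was lost in 4 of 6 runs without a library, those without control libraries 2 or 3 and without HF libraries 1 or 3 (log2 0.35 to 0.44, edgeR adjusted p = 0.083 to 0.15), and also with upper-quartile factors (edgeR adjusted p = 0.067) and with DESeq2 (adjusted p = 0.076). Its footprints were 30.4, 35.1 and 53.1 CPM in HF libraries, against 86.8, 85.2 and 66.0 CPM in control libraries. Here the groups were apart, and the fall of log2 −1.12 (SE 0.24, edgeR adjusted p = 0.00037) held in all 13 alternatives. TE was lower at log2 −1.58 (SE 0.31, edgeR adjusted p = 0.00026), the lowest value among the 35 members tested, and that call held in all 19 alternatives.

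Atg2a fell in RNA. It had 73.9, 49.1 and 61.8 CPM in HF libraries, against 91.0, 93.0 and 94.5 CPM in control libraries, a fall of log2 −0.59 (SE 0.21, edgeR adjusted p = 0.017) without overlap. It was log2 −0.45 (edgeR adjusted p = 0.10) without HF library 2 and log2 −0.56 (edgeR adjusted p = 0.062) without HF library 3. Its footprints had no call at log2 0.21 (95% interval −0.24 to 0.65, edgeR adjusted p = 0.47), and TE was 0.80 ± 0.30 (SE), outside the threshold (edgeR adjusted p = 0.065).

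Wipi2, which recruits Atg16l1 to the membrane, had 172, 171 and 176 footprint CPM in HF libraries, against 74.2, 78.4 and 87.1 CPM in control libraries. The libraries of each group lay within a narrow band, and the rise was 2.19-fold (log2 1.13, SE 0.17, edgeR adjusted p = 1.36e-06). In RNA it had 268, 273 and 287 CPM in HF libraries, against 207, 223 and 223 CPM in control libraries, also without overlap, at log2 0.35 (SE 0.12, edgeR adjusted p = 0.015). That smaller rise was log2 0.31 (edgeR adjusted p = 0.067) without control library 1 and log2 0.34 (edgeR adjusted p = 0.054) without HF library 3. TE was higher by log2 0.79 (SE 0.19, edgeR adjusted p = 0.0033), a call that held in all 19 alternatives.

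Wipi1 had 17.6, 18.7 and 14.1 RNA CPM in HF libraries, against 32.2, 42.3 and 41.0 CPM in control libraries, and fell without overlap, at log2 −1.20 (SE 0.35, edgeR adjusted p = 0.0043). Its footprints were 5.63, 10.0 and 22.7 CPM in HF libraries, against 23.1, 25.7 and 23.9 CPM in control libraries. HF library 3 lay close to the control libraries, and the change of log2 −1.14 (SE 0.46, edgeR adjusted p = 0.046) was lost in 5 of 6 runs without a library, all but that without HF library 3 (log2 −1.18 to −0.58, edgeR adjusted p = 0.067 to 0.35). Without HF library 1 it was log2 −0.58 (edgeR adjusted p = 0.35). The call was also lost with DESeq2 (adjusted p = 0.10) and with all genes fitted (edgeR adjusted p = 0.057). Wdr45 had 20.2, 31.4 and 23 RNA CPM in HF libraries, against 11.3, 5.64 and 12.6 CPM in control libraries, a rise without overlap of log2 1.28 (SE 0.46, edgeR adjusted p = 0.019) on 124 counts. It was log2 1.05 (edgeR adjusted p = 0.067) without control library 2 and log2 1.10 (edgeR adjusted p = 0.096) without HF library 2. Wdr45 footprints had no call (log2 −0.17, edgeR adjusted p = 0.76), nor had Atg9a (log2 −0.69 in RNA and −0.48 in footprints, edgeR adjusted p = 0.066 and 0.27).

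Pink1 encodes the kinase that flags damaged mitochondria for removal. Its RNA was 5.28, 3.93 and 7.06 CPM in HF libraries, against 20.9, 14.1 and 15.8 CPM in control libraries, all HF libraries being lower, with a fall of log2 −1.60 (SE 0.56, edgeR adjusted p = 0.016). Footprints were 13.5, 16.7 and 3.79 CPM in HF libraries, against 5.68, 9.19 and 0 CPM in control libraries, with overlap (log2 1.04, edgeR adjusted p = 0.19). TE was higher by log2 2.65 (SE 0.82, edgeR adjusted p = 0.022), the highest value among the 35 members, on only 73 RNA and 65 footprint counts. The RNA call was lost without control library 1, HF library 1 or HF library 2 (log2 −1.53 to −1.41, edgeR adjusted p = 0.057 to 0.11). For TE, Pink1 has a value in only 9 of the 12 runs without a library. The TE call was lost in 4 of these 9 (log2 2.31 to 2.47, edgeR adjusted p = 0.053 to 0.081). They were the runs without RNA control library 1, RNA HF library 2, footprint control library 3 or footprint HF library 2.

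Tfeb and Tfe3 encode transcription factors held in the cytoplasm by mTORC1 and known to bind the E-box CACGTG in promoters of lysosome and autophagy genes. Tfeb RNA was sparse, at 0, 5.89 and 13.0 CPM in HF libraries, against 22.5, 11.3 and 10.5 CPM in control libraries, with overlap (log2 −1.15 ± 0.60 (SE), edgeR adjusted p = 0.11). It passed as lower only without HF library 3, at log2 −2.34 (edgeR adjusted p = 0.033). Its footprints, 7.88, 13.4 and 7.58 CPM in HF libraries and 7.30, 8.58 and 5.62 CPM in control libraries, were too few to test. Tfe3 had 73.9, 48.1 and 68.9 RNA CPM in HF libraries, against 88.6, 69.1 and 85.1 CPM in control libraries, and 51.8, 46.8 and 72.0 footprint CPM in HF libraries, against 43.8, 48.4 and 63.2 CPM in control libraries. Both pairs overlapped, at log2 −0.35 in RNA and 0.15 in footprints (edgeR adjusted p = 0.18 and 0.65). These values concern the genes' own expression and not where the proteins were in the cell.

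The E-box was found in 4 of the 41 member windows (9.76%, beside 7.15% of all 32851 windows), those of Atg14, Atg3, Atg5 and Atg7. They are shown because they are the member windows in which these letters were found. Each line gives 40 bases with CACGTG in capitals (RefSeq, GRCm38.p6, strand of the gene), and Atg3 holds a pair of sites.
Atg14: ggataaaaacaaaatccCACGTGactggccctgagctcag
Atg3: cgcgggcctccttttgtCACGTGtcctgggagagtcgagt
Atg3: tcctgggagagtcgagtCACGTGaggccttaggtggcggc
Atg5: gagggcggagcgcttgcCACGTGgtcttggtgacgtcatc
Atg7: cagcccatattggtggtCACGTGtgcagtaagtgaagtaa
The excerpts lie at chr14:47568413-47568452 (minus strand) for Atg14, chr16:45158718-45158757 (plus strand) and chr16:45158741-45158780 (plus strand) for Atg3, chr10:44268308-44268347 (plus strand) for Atg5 and chr6:114670947-114670986 (plus strand) for Atg7, the last before a start inside the gene's annotated span. None of these 4 genes passed the test in RNA, with log2 changes of 0.31, 0.13, −0.60 and −0.38. The core of the C/EBP-ATF element that ATF4 and CHOP bind, searched as TGATGNAA, matched 0 of the 41 member windows, beside 3.97% of all windows. The core of the antioxidant response element, searched as TGACNNNGC, matched 4 (9.76%, beside 12.4%), in Atg13, Map1lc3b, Tax1bp1 and Ulk2. All patterns were searched on both strands and may overlap each other. A match is a description of letters and not a bound site, and the window does not cover enhancers, introns or the starts of the 7 members that have no window. Those are Atg12, Atg16l1, Becn1, Bnip3l, Map1lc3a, Pik3c3 and Rb1cc1, of which Atg12 and Map1lc3a rose in both assays. The 0 matches to TGATGNAA therefore say nothing of these genes.

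In published work on fibroblasts short of amino acids, 12 of the 41 members were reported to depend on ATF4, on CHOP or on both for their induction. That list was drawn up here from general knowledge and is described by counts only. Of the 11 tested in RNA, 3 rose (Atg12, Nbr1 and Sqstm1) and none fell, with a median log2 change of 0.26, while 22.2% of all genes tested rose and 21.4% fell. In footprints 5 of 11 rose (those 3 with Gabarap and Gabarapl2) and Becn1 fell, with a median of 0.08, while 22.4% of all genes tested rose and 20.9% fell. With so few members these counts do not set the list apart from all genes or from the other members, and the difference was not tested. Of the other 29 members, 28 were tested in RNA, of which 7 rose and 8 fell (median −0.14), and 24 in footprints, of which 4 rose and 4 fell (median −0.18). The listed members Atg3, Atg5, Atg7, Atg16l1 and Map1lc3b passed in neither assay, and Atg10 had too few counts. Optn, Wipi2 and Map1lc3a, which rose in both assays, are not in that list.

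Footprints per RNA are given as the log2 of mean footprint CPM over mean RNA CPM (with 1 CPM added to each). The counted feature is not known and gene lengths were not used. A gene's place among others is therefore not a measure of how heavily its mRNA was translated. The scale depends on both assays, so only a gene's place among the 7926 genes tested for TE is compared. In HF cells the members' median was 0.08, beside 0.10 for all genes, and 16 of 35 members were above the median of all genes. In control cells it was −0.23, beside 0.09 for all genes, and 13 of 35 members were above the median of all genes there. Tax1bp1 stood highest among the members in both groups, at percentile 97.8 in HF cells and 98.8 in control cells, and Bnip3l stood low in both, at 1.92 in HF cells and 6.38 in control cells. Sqstm1 was at the 62.7 percentile in HF cells and the 37.0 in control cells. Atg4b was at 74.7 in HF cells and 36.0 in control cells, and Wipi2 at 23 in HF cells and 8.93 in control cells. In the other direction, Atg2b was at 8.79 in HF cells and 44.7 in control cells, and Uvrag at 15.0 in HF cells and 44.7 in control cells. Wipi2 therefore ranked below most genes in both groups, although its TE was called higher.

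**Figure D4:**
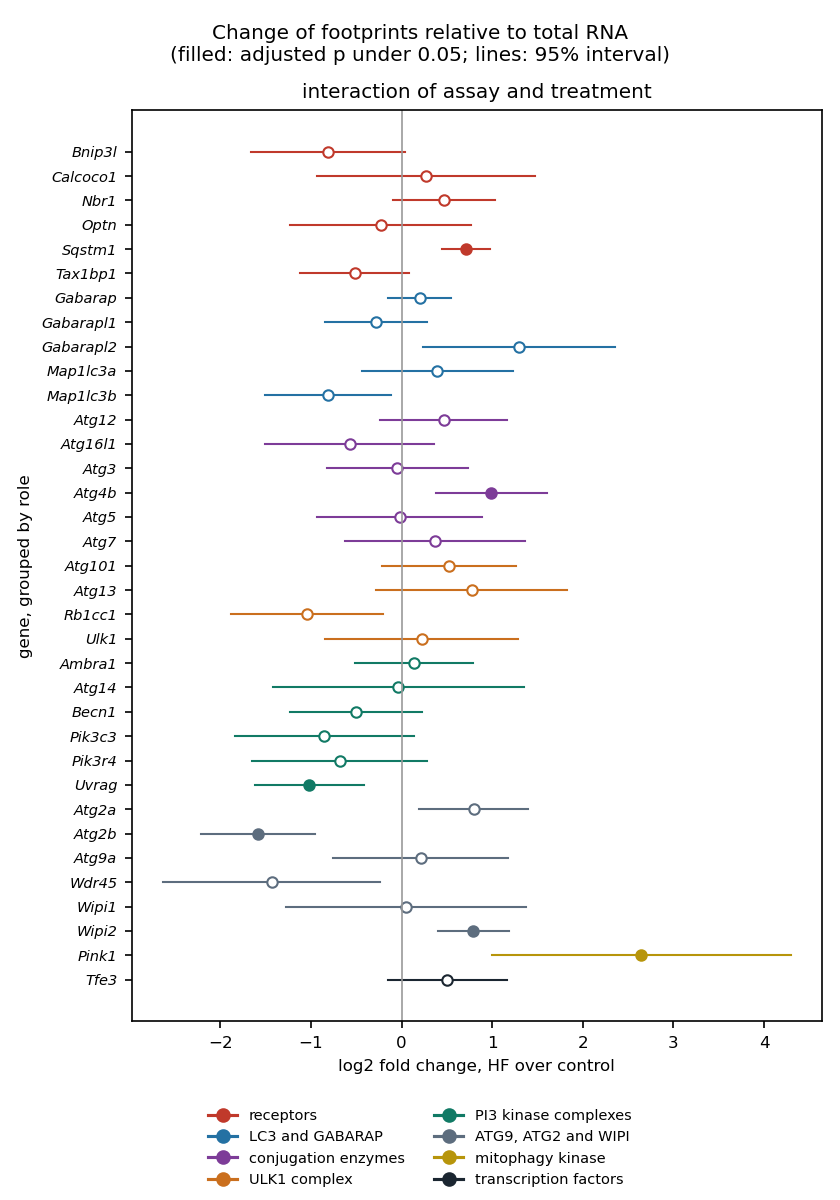
Log2 change in translational efficiency, HF over control (horizontal axis), for the 35 members tested, grouped by role, with lines for the 95% interval and filled points for edgeR adjusted p under 0.05. Filled points right of 0 are Sqstm1, Atg4b, Wipi2 and Pink1, whose line is the longest, and those left of 0 are Uvrag and Atg2b.

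Among TE values outside the threshold, Wdr45 was at −1.43 (95% interval −2.63 to −0.24, edgeR adjusted p = 0.10), Rb1cc1 at −1.04 (−1.89 to −0.20, 0.089) and Map1lc3b at −0.81 (−1.51 to −0.11, 0.11). TE of Map1lc3b stayed outside it in 16 of 19 alternatives. It passed as lower with counts halved (log2 −0.84, edgeR adjusted p = 0.048). It also passed without RNA control library 2 or RNA HF library 2 (log2 −1.08 to −1.05, edgeR adjusted p = 0.024 to 0.048). The counts do not separate footprints on coding regions from those on upstream reading frames, and whether upstream footprints form part of any TE change was not tested. Footprints count ribosomes on an mRNA and not protein made, so a higher TE is not a measured rise in protein output. Whether ribosomes slowed at proline codons form part of any TE change was not tested either.

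A further 52 genes of the pathway, such as fusion factors and other selective receptors, were set beside the members. In RNA 43 were tested, of which 15 rose and 8 fell, with a median log2 change of 0.23 beside −0.02 over all genes, of which 22.2% rose and 21.4% fell. In footprints 43 were tested, of which 9 rose and 8 fell, with a median of 0.11 beside −0.02 over all genes, of which 22.4% rose and 20.9% fell. For TE 42 were tested, of which 5 were higher and 7 lower, with a median of −0.19 beside 0.00 over all genes, of which 6.13% were higher and 8.23% lower. The 8 called genes with the largest log2 changes in RNA were Stbd1 (3.19), Hmgb1 (−2.40), Atg16l2 (2.01), Foxo3 (1.45), Tbk1 (1.33), Plekhm1 (−1.24), Epg5 (1.21) and Tollip (1.19). Stbd1 is a receptor for glycogen, and Tbk1 is the kinase that phosphorylates Optn and p62. Hmgb1 rests on 59 counts and has many near-identical copies, so its value is uncertain. In footprints they were Tollip (3.15), Wdfy3 (−2.21), Atg16l2 (2.09), Stbd1 (2.05), Wdr45b (1.70), Vamp8 (−1.61), Bcl2l13 (1.58) and Epg5 (1.40). For TE they were Pik3c2a (−2.13), Tollip (1.97), Wdfy3 (−1.63), Rubcn (−1.35), Wdr45b (1.31), Foxo3 (−1.21), Sec62 (−1.04) and Rtn3 (−0.98).

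Tollip, an adaptor that binds ubiquitin and LC3, exceeded every member in its footprint change. It had 262, 258 and 212 footprint CPM in HF libraries, against 27.6, 25.7 and 30.9 CPM in control libraries, and 246, 245 and 231 RNA CPM in HF libraries, against 98.2, 106 and 113 CPM in control libraries. The groups were far apart in footprints and apart in RNA, with rises of log2 3.15 (SE 0.18, edgeR adjusted p = 2.49e-15) and log2 1.19 (SE 0.14, edgeR adjusted p = 1.78e-10) and a TE change of log2 1.97 (SE 0.23, edgeR adjusted p = 7.74e-09). Wdfy3 (ALFY), a scaffold that brings p62 bodies to autophagosomes, had 12.9, 10.0 and 17.1 footprint CPM in HF libraries, against 64.5, 61.3 and 56.2 CPM in control libraries, a fall of log2 −2.21 (SE 0.31, edgeR adjusted p = 4.89e-07). Vamp8, a SNARE protein that fuses autophagosomes with lysosomes, fell in RNA (log2 −1.08, SE 0.30, edgeR adjusted p = 0.0026) and in footprints (log2 −1.61, SE 0.26, edgeR adjusted p = 6.66e-06).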

How the data were processed

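The 12 libraries, 6 of total RNA and 6 of footprints, were grouped by their titles. Per the submitters' processing notes, Bowtie, HISAT2, HTSeq and the build GRCm38 were used, without versions or order. The authors deposited raw counts per gene, whole numbers with no normalization. Not given in the sources used here are the counted feature, strand use and handling of multiply mapped reads. Reads in a stretch shared by overlapping genes therefore cannot be told apart, and copies are uncertain. Low counts were mostly even (RNA control 1 had 1541 genes with 2 counts and 419 with 1), and the sources do not say why. The counts given for a gene may therefore not equal its number of separate fragments, which was not tested. No pair of libraries was identical.

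Of 55536 IDs, 55450 had a symbol and 38652 a RefSeq gene type, 21409 of them protein-coding; 0 entries named no gene. Genes kept by filterByExpr (minimum count 10) were scaled with TMM and tested by quasi-likelihood in edgeR 4.0.16 (R 4.3.3), with Benjamini-Hochberg adjustment over all genes tested and a threshold of 0.05. RNA was fitted on all genes, footprints on protein-coding genes, and TE as an interaction over all 12, with TMM run separately per assay. SEs were derived from the F statistic. The scripts were tested on simulated data. Alternatives included DESeq2 1.42.0, other scaling factors, no filter, halved counts, a replicate block and leaving out each library.

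Members that passed with at least 1.5-fold change, and 8 fixed members, are given by library, and of the other pathway genes the 8 called with the largest change in each comparison. The members and lists were chosen with earlier results of these data known. Protein sequences and gene lengths were not used here, so levels are not compared between genes per length.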

Additional observations from a re-analysis of the deposited data

How the results depend on the processing

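Of the calls for named members, 8 of 18 in RNA (Atg12, Atg13, Nbr1, Optn, Sqstm1, Ulk1, Uvrag and Wipi1), 10 of 14 in footprints and 4 of 6 in TE (Atg2b, Sqstm1, Uvrag and Wipi2) passed in every alternative run. Members called lower in footprints numbered 5, but 2 with DESeq2 and 3 when all genes were fitted, and 1 to 5 with a library left out. With a library left out, members in RNA numbered 4 to 8 lower and 6 to 10 higher, and members with higher TE 2 to 5. The matching counts over all genes are not given here. These ranges therefore cannot be read as a trait of the members. Values near 0 changed sign: footprints of Gabarapl1 were at 0.026 with counts halved and −0.11 to 0.058 with a library left out, footprints of Tfe3 −0.0071 to 0.25, and TE of Ulk1 −0.11 to 0.45, none of them called. The causes were not tested. Upper-quartile factors moved the footprint median of all genes to −0.10. Same-numbered libraries did not deviate together (correlations of −0.03 to 0.02), and with a replicate block 9 members were higher and 7 lower in RNA, 9 and 4 in footprints, and 4 and 2 in TE; the calls of Atg4c and Rb1cc1 in RNA (edgeR adjusted p = 0.068 and 0.070) and of Becn1 and Ulk1 in footprints (edgeR adjusted p = 0.059 and 0.060) did not pass with the block. DESeq2 gave no adjusted p for TE of Pink1, and no value is used from it. Depth limits the members with few counts, such as Pink1, Atg4c and Tfeb. In RNA these have values in 11 alternatives, against 12 for the other members followed.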

Other observations

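Within each library, the counts of close relatives can be set against each other, so that library scaling drops out. This was done for 6 pairs chosen after the values were seen. With 3 libraries a group, an exact permutation test of a ratio cannot give a p below 0.1, and none passed. The ratios are therefore descriptions only. Ulk1 per Ulk2 overlapped between groups in RNA, at 2.14, 2.0 and 1.09 in HF libraries, against 1.49, 2.56 and 1.61 in control libraries. That ratio was not formed in footprints, where Ulk2 had libraries at 0.

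Atg2b per Atg2a stood at 1.74, 1.86 and 1.98 in the RNA libraries of HF cells, against 1.08, 0.712 and 0.856 in those of control cells, while in footprints it stood at 0.462, 0.538 and 0.800 in HF libraries, against 1.49, 1.70 and 1.02 in control libraries. The ratio of these lipid carriers was higher in RNA and lower in footprints of HF cells. Wipi2 per Wipi1 was higher in both assays, at 15.2, 14.6 and 20.3 in the RNA libraries of HF cells, against 6.43, 5.27 and 5.44 in those of control cells, and at 30.5, 17 and 7.75 in the footprint libraries of HF cells, against 3.21, 3.05 and 3.65 in those of control cells.

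In the LC3 family, footprints of Map1lc3b per Map1lc3a were 1.46, 0.781 and 1.52 in HF libraries, against 5.57, 3.49 and 4.00 in control libraries, and in RNA the libraries overlapped. In the GABARAP family, footprints of Gabarapl2 per Gabarapl1 were 0.323, 0.475 and 0.438 in HF libraries, against 0.159, 0.123 and 0.069 in control libraries, and footprints of Gabarapl1 per Gabarap were 0.233, 0.241 and 0.239 in HF libraries, against 0.310, 0.327 and 0.357 in control libraries, again with overlap in RNA for both. A ratio shows unequal change and not which gene of a pair moved.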
